A study of Mus musculus with 123 samples.

Results

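The 6 genes described here are Spry1, Spry2 and Spry4 of the Sprouty family, Spred1 and Spred2 of the related Spred family, and Errfi1. They were chosen by name, as negative regulators of receptor tyrosine kinase signalling, with earlier results of these data known. Counts of them set against all genes are therefore descriptions only. All 6 are among the 13842 genes of the RNA level table. RNA-seq and ATAC-seq, which reads open chromatin, were made from cerebral cortex. The animals were male mice of the inbred strain C57BL/6J, 11 to 12 weeks old, and both assays drew on 1 set of animals. The RNA table holds 62 animals. Undisturbed controls were taken at ZT0 (8 animals, labelled T0 or T24, 4 of them in batch 2), ZT3 (3), ZT6 (5), ZT12 (5) and ZT18 (5), where ZT counts hours from light onset in a light-dark cycle. The deprived mice were kept awake by gentle handling from light onset for 6 h and were taken, 3 animals per group, at T27 (3 h into deprivation) and T30 (its end), and then at T36, T42, T48, T54, T60, T66, T72 and T78, with T192 and T198 a week later. T counts hours from the light onset of the day before deprivation. The labels of T36 animals place them during deprivation, whereas the protocol ends it 6 h earlier, and the protocol was followed. No group carries an allele or an agent. Each group is a bulk piece of cortex, in which fewer cells of a type and less RNA per cell cannot be told apart. Levels are the deposited log2 values, on which 0 is not an absence of RNA, and which keep no read depth per library. No source used here says if levels were divided by transcript length, so they are compared between groups for 1 gene and never between genes.

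Growth factors and neurotrophins bind receptor tyrosine kinases, which recruit adaptors such as Grb2 and Sos, load Ras with GTP and start the Raf, MEK and ERK kinase cascade. ERK activity switches on genes that damp the same cascade, and this forms a negative feedback loop. Sprouty proteins interfere between the receptor and Ras or Raf. Spred proteins sit at the membrane and bring neurofibromin, a Ras inactivator, to Ras. Errfi1, also called Mig6 or RALT, binds and inhibits the kinase domain of the EGF receptor family. In cortex, ERK is switched on by neuronal activity and by BDNF acting on TrkB.

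RefSeq places Spry1 on chromosome 3 from 37639947 to 37644599, Spry2 on chromosome 14 from 105891947 to 105896819, Spred1 on chromosome 2 from 117121071 to 117182279, Spred2 on chromosome 11 from 19924442 to 20024026 and Errfi1 on chromosome 4 from 150853796 to 150868889, all in build GRCm38.p6. The Errfi1 span overlaps the long noncoding RNA gene 1700045H11Rik, so reads from the shared stretch could have been assigned to either gene. Upstream sequence from the RefSeq promoter table, build GRCm38.p6, is shown for 4 of the genes. They were higher in deprived mice than in controls of the same time of day, and an open chromatin peak overlaps each window. At Spry2 that peak starts at 105897043, so it reaches only the end of the window far from the start site. A peak also overlaps the Spry1 window, which is not shown, although Spry1 was called higher at T30. The Spry2, Spred1 and Spred2 windows are the 250 bases before the start site, on the minus, plus and plus strands. The Errfi1 stretch shows 30 bases on the plus strand from inside the 250-base window before its second start site, not those next to that site. Capitals mark a cAMP response element (TGACGTCA) or its core (TGACG, which also lies inside the full element), on either strand.
Spry2 (chr14:105896820-105897069): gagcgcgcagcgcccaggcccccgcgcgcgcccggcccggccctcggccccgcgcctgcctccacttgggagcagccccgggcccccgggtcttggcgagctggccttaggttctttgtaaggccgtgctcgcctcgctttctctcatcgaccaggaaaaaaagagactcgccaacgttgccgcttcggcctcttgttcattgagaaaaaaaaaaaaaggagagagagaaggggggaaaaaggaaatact
Spred1 (chr2:117120821-117121070): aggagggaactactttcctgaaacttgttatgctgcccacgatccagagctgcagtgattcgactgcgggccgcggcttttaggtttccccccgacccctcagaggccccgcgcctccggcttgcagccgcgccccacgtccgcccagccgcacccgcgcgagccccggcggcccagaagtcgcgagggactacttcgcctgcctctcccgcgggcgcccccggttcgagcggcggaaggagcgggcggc
Spred2 (chr11:19924192-19924441): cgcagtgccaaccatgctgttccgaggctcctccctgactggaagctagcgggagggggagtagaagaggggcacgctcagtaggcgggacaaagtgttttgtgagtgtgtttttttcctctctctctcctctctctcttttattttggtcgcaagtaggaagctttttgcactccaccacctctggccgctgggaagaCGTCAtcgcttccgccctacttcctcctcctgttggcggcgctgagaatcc
Errfi1 (chr4:150855008-150855037): gctgcgggcgtTGACGTCAcgttgtcgctc
The full element was found in 1 of the 6 windows searched, that of the second Errfi1 start site, from 51 to 44 bases upstream, and in 1.55% of all 32851 promoter windows of the same length. Its core was found in 2 of the 6 windows, the same Errfi1 window and that of Spred2 from 51 to 47 bases upstream, against 17.8% of all windows. The Spry2 and Spred1 windows hold neither. The AP-1 motif TGANTCA (6.75% of all windows), the ETS motif CCGGAAG (6.91%), the EGR motif GCGNGGGCG (4.70%) and the CArG box (1.47%) had no match in any of the 6 windows. These letter matches are descriptions of the windows only.

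The first deprived animals were taken after 3 h of wakefulness, at T27, and are compared with controls left undisturbed until ZT3. At T27, 5 of the 6 genes were higher than in ZT3 controls, against 8.21% of all genes in that comparison. The median change of the 6 genes was 0.46 in log2, against -0.005 over all genes. For deprived mice, a rise means a level above controls of the same time of day, which can include a fall in those controls. Deprivation began at ZT0. In order Spry1, Spry2, Spry4, Spred1, Spred2 and Errfi1, control means there were 2.42, 5.52, 3.27, 6.66, 6.14 and 4.08. The T27 means were 2.68, 5.71, 3.52, 6.81, 6.37 and 4.29. Neither T27 nor T30 was tested against ZT0. At T30, after 6 h, all 6 rose, against 16.0% of all genes, with a median change of 0.53 against -0.003. The 2 comparisons use different control animals. By the levels of single animals, 5 of the 6 genes at T27 and 6 of 6 at T30 had every deprived animal above every control, which held for 16.1% of all genes in each comparison.

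Spry4 lies on chromosome 18 from 38586247 to 38601347 (GRCm38.p6). Its log2 change was the largest of the 6 genes at both times. It stood at log2 levels of 3.49, 3.50 and 3.58 in the T27 animals and at 2.42, 2.74 and 2.89 in the ZT3 controls. At T30 its levels were 3.48, 3.53 and 3.54, while the 5 ZT6 controls ran from 2.09 through a median of 2.33 to 2.78. The deprived animals lay close together and above all controls in both comparisons. The rise was 1.79-fold at T27 (log2 change 0.84, SE 0.18, limma adjusted p = 0.00093) and 2.23-fold at T30 (1.16, SE 0.17, adjusted p = 5.8e-07). Ordered by log2 change, Spry4 was at rank 44 of 13842 genes at T30 and at rank 80 at T27. A filter on genes below the 25th percentile of mean level removes Spry4, and also Spry1, from the test.

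Spry2, best known as a brake on FGF receptor signalling, stood at 5.57, 5.65 and 5.90 at T27 against 5.15, 5.16 and 5.41 at ZT3. At T30 the levels were 5.67, 5.75 and 5.83, against 4.86 to 5.22 with a median of 5.11 in ZT6 controls. Neither pair of groups overlapped. The rise was 1.38-fold at T27 (log2 change 0.47, SE 0.11, adjusted p = 0.0029) and 1.62-fold at T30 (0.69, SE 0.10, adjusted p = 1.1e-06).

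Spry1 had the smallest response of the 6. Its T27 levels, 2.62, 2.65 and 2.77, overlapped ZT3 controls at 2.36, 2.65 and 2.68, and the log2 change of 0.12 (SE 0.07) did not pass the test (adjusted p = 0.30). At T30 it stood at 2.49, 2.59 and 2.63, above ZT6 controls at 2.30 to 2.45 with a median of 2.40, a rise of 1.13-fold (0.18, SE 0.07, adjusted p = 0.038). That call was lost without control T6N3 (adjusted p = 0.10), control T6N4 (0.056), deprived animal T30S1 (0.10) or T30S4 (0.17), within batch 1 (0.052) and with library medians aligned (0.060).

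Spred2 stood at 6.26, 6.40 and 6.44 at T27 against 5.52, 5.58 and 5.71 at ZT3, the second steepest rise of the 6 at that time (1.70-fold, log2 change 0.77, SE 0.12, adjusted p = 1.7e-05). At T30 its levels were 6.28, 6.32 and 6.41 against 5.50 to 6.09 with a median of 5.72 at ZT6 (1.53-fold, 0.61, SE 0.11, adjusted p = 3.6e-05). The groups did not overlap at either time. The highest ZT6 control for Spred2, animal T6N3 at 6.09, was also the highest for Spred1.

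Spred1, whose loss in humans causes a neurofibromatosis-like syndrome, stood at 6.78, 6.81 and 6.84 at T27 and at 6.30, 6.30 and 6.45 in ZT3 controls. At T30 it stood at 6.76, 6.80 and 6.84, with ZT6 controls from 6.18 through a median of 6.32 to 6.64. Deprived animals were higher than every control. The rise was 1.38-fold at T27 (log2 change 0.46, SE 0.09, adjusted p = 0.00032) and 1.36-fold at T30 (0.44, SE 0.08, adjusted p = 5.3e-05).

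Errfi1, the EGF receptor inhibitor, stood at 4.23, 4.23 and 4.40 at T27 and at 3.86, 4.03 and 4.06 at ZT3. At T30 it stood at 4.22, 4.25 and 4.26, and ZT6 controls at 3.91 to 4.05 with a median of 4.01. The groups did not overlap, although the rise was small: 1.23-fold at T27 (log2 change 0.30, SE 0.07, adjusted p = 0.0012) and 1.20-fold at T30 (0.26, SE 0.06, adjusted p = 0.00094).

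All T27 and ZT3 libraries carry the label batch 1, so that comparison lies within 1 batch. At T30 the deprived libraries are batch 1, and the ZT6 controls hold 3 libraries of batch 1 and 2 of batch 2. Within batch 1 the T30 log2 changes were 1.27 for Spry4, 0.75 for Spry2, 0.55 for Spred2, 0.38 for Spred1, 0.24 for Errfi1 and 0.19 for Spry1. Of these 6, 5 passed, all but Spry1. For none of the 6 genes did the difference between the T27 and T30 effects pass the test: it ran from -0.15 for Spred2 to 0.32 for Spry4 (adjusted p of 0.76 or above, SE 0.09 to 0.25), against 0.00722% of all genes called.

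**Figure D1:**
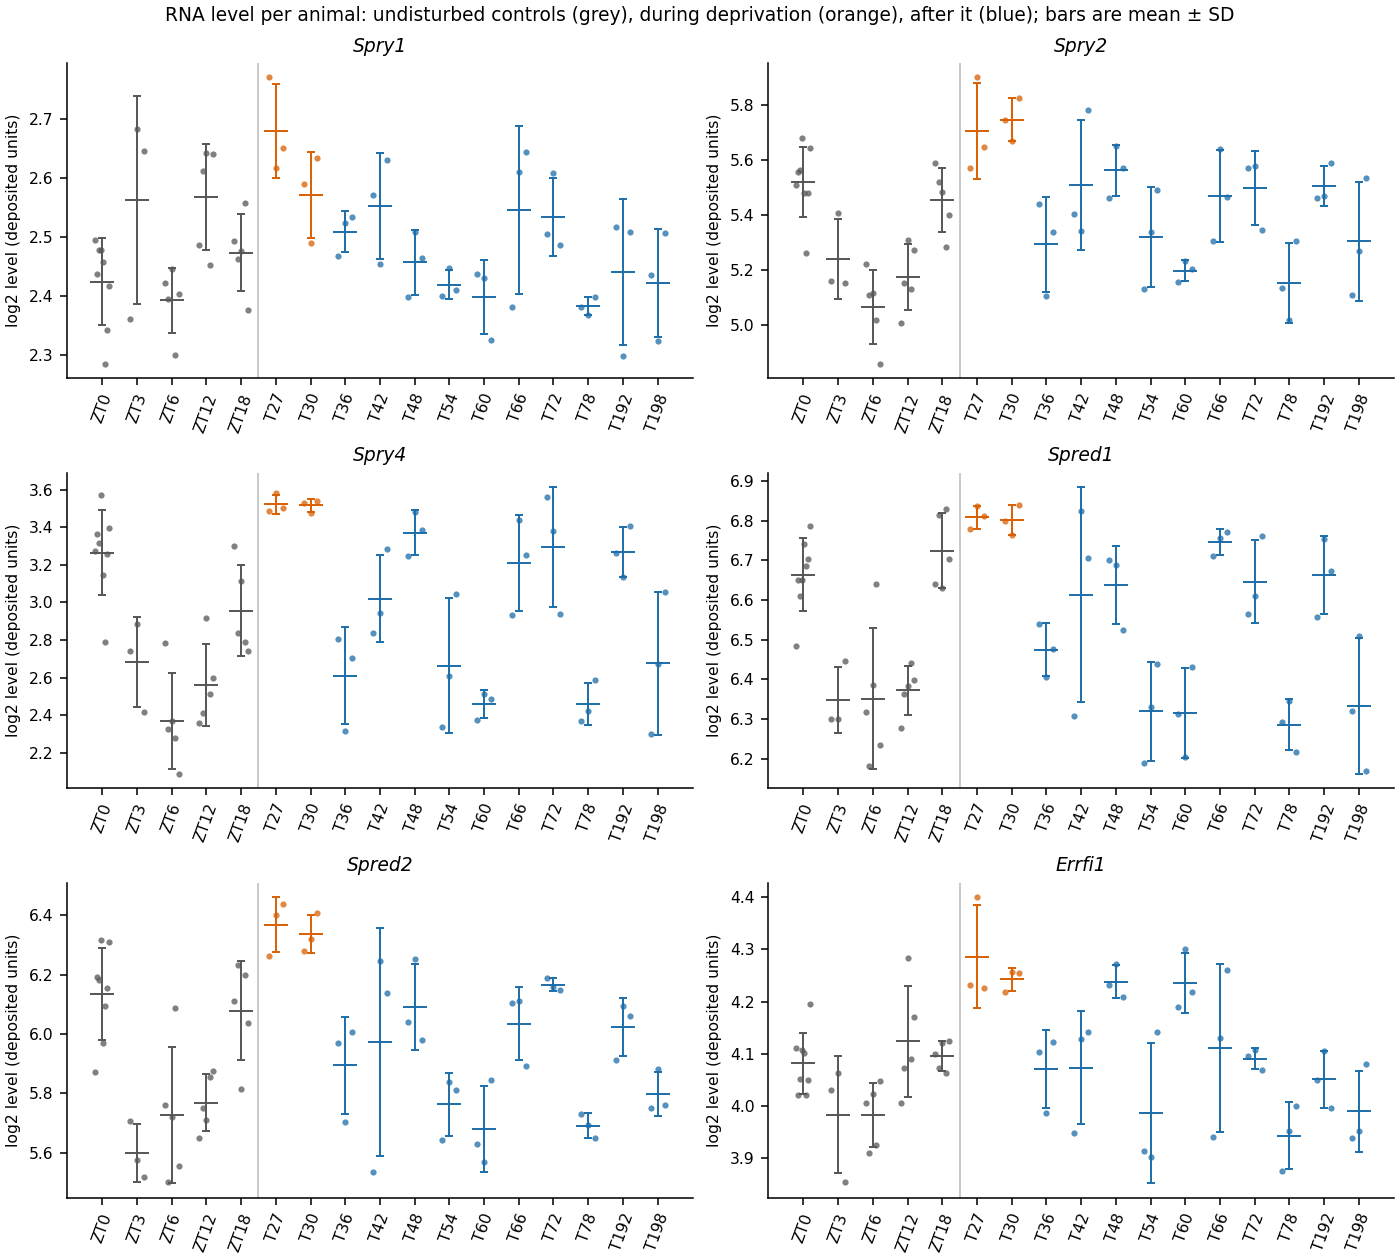
RNA levels (log2, deposited units, y axis) of each of the 6 genes in every animal, by group (x axis): undisturbed controls by ZT in grey, T27 and T30 in orange, later deprived groups in blue, with bars for mean and SD. For Spry4 the T27 and T30 animals lie between 3.48 and 3.58, and the ZT6 controls between 2.09 and 2.78.

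At T36, 6 h after deprivation ended, none of the 6 genes was called against ZT12 controls, beside 11.9% of all genes called in either direction. Spry4 stood at 2.32, 2.70 and 2.81 at T36 against 2.36 to 2.92 with a median of 2.51 at ZT12, and Spred2 at 5.71, 5.97 and 6.01 against 5.65 to 5.88 with a median of 5.75. The log2 changes of the 6 genes ran from -0.06 for Spry1 to 0.13 for Spry2 and Spred2 (SE 0.06 to 0.17, adjusted p of 0.46 or above). No gene of the 6 had unadjusted p under 0.05.

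Whether the effect of deprivation differed between T30 and T36 was tested directly. The effect was lower at T36 for 5 of the 6, against 5.75% of all genes: that of Spry4 fell by 1.10 (SE 0.23, adjusted p = 0.00092), Spry2 by 0.56 (SE 0.14, adjusted p = 0.0060), Spred2 by 0.48 (SE 0.16, adjusted p = 0.034), Spred1 by 0.35 (SE 0.12, adjusted p = 0.041) and Errfi1 by 0.31 (SE 0.09, adjusted p = 0.010). Spry1 had -0.24 (SE 0.09, adjusted p = 0.088). The calls for Spry4 and Spry2 were kept within batch 1, at -1.22 (adjusted p = 0.0044) and -0.61 (adjusted p = 0.025), and without any 1 library. Those for Spred1 and Spred2 were lost within batch 1 (adjusted p = 0.31 and 0.30). Spred1 was also lost without any of the 11 libraries T12N4, T12N5, T12N6, T6N4, J76N1, J76N2, T30S1, T30S3, T30S4, T36S2 and T36S4 (adjusted p from 0.053 to 0.11), and Spred2 without T12N5, T12N6, T6N4, J76N2, T30S3, T30S4 or T36S2 (0.055 to 0.14). Errfi1 was lost within batch 1 (adjusted p = 0.074) and without T36S2 (0.051). Between T36 and T42 no difference of effects passed the test for any of the 6, against 3.30% of all genes.

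Later groups gave no call for any of the 6 genes. The share of all genes called in either direction was 1.05% at T42, 1.27% at T48, 0.00722% at T54, 0.00722% at T60, 0.0795% at T66, 0.00722% at T72, 0.00% at T78, 0.00% at T192 and 0.00722% at T198. Of these 54 gene-and-time pairs, 4 had unadjusted p under 0.05. Errfi1 at T48 stood at 4.21, 4.23 and 4.27, above all 8 ZT0 controls, with a log2 change of 0.16 (SE 0.06, adjusted p = 0.19). Spry1 at T60 lay below all 5 ZT12 controls, with -0.17 (SE 0.07, adjusted p = 0.44). Spry2 had 0.27 at T54 (SE 0.10, adjusted p = 0.34) and 0.23 at T198 (SE 0.11, adjusted p = 0.49), with overlapping groups. T60, T66, T192 and T198 lie wholly in batch 2, and T30, T54, T78 and T198 share ZT6 controls, T36 and T60 share ZT12, T42 and T66 share ZT18, and T48, T72 and T192 share ZT0.

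**Figure D2:**
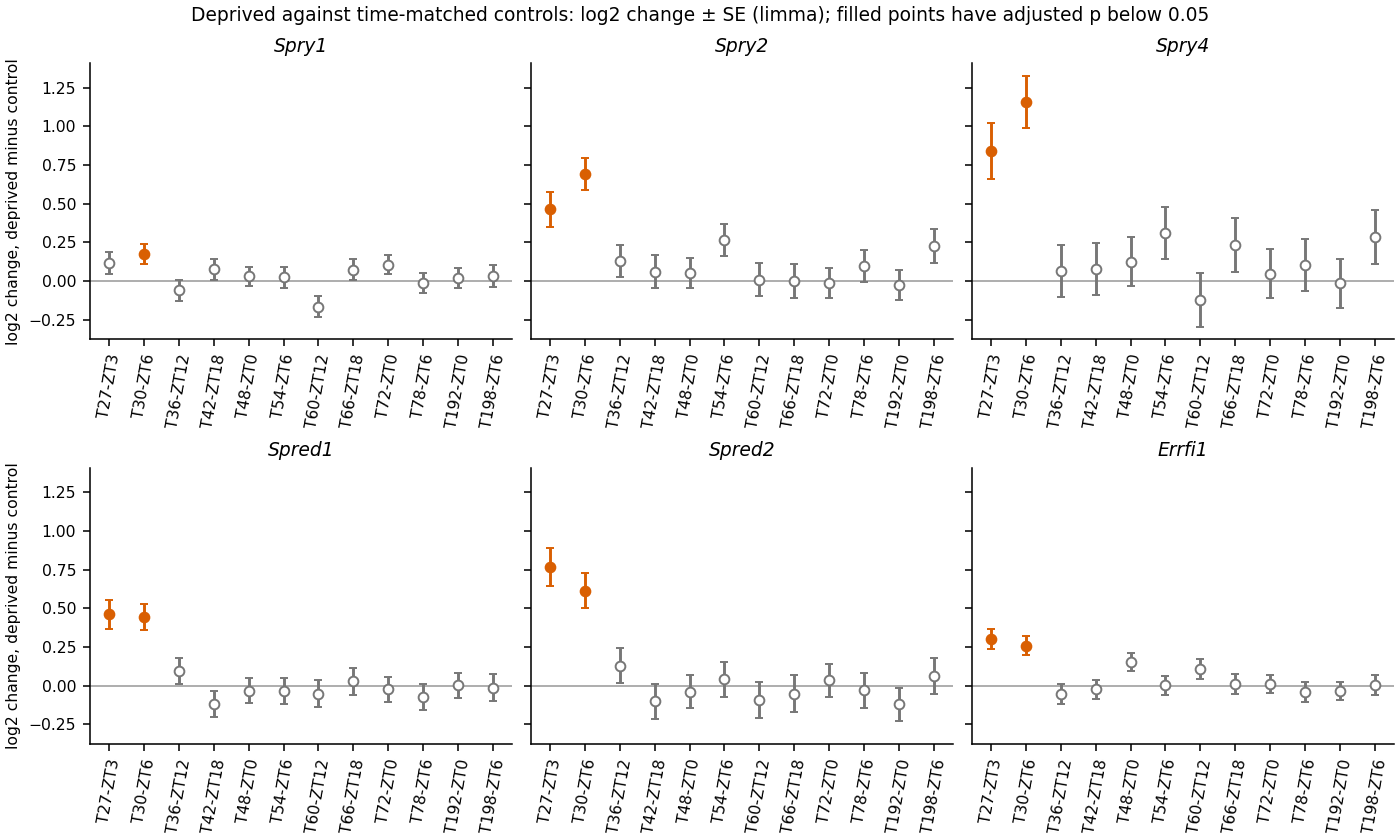
Log2 change of each deprived group against controls of the same time of day (y axis, with SE from limma) for the 6 genes over the 12 comparisons (x axis); filled points have an adjusted p below 0.05. Filled points occur at T27 and T30 only, 5 and 6 of them, and the later changes lie between -0.17 and 0.31.

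In undisturbed mice 5 of the 6 genes varied with time of day by the F-test over the 5 control times, against 40.7% of all genes: Spry4 (adjusted p = 1.2e-06), Spred1 (2.6e-06), Spred2 (1.7e-05), Spry2 (2.3e-05) and Spry1 (0.032). Errfi1 did not pass (0.076), and passed without control T12N1 (0.038). The Spry1 call was lost within batch 1 (0.10) and without T0N5, T12N2, T12N4, T12N6, T3N3, T3N4 or T6N3 (0.052 to 0.095). Within batch 1 the other 4 calls were kept.

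Mean levels of Spry4, Spry2, Spred1 and Spred2 were higher at ZT18 and ZT0 than at ZT3, ZT6 and ZT12. Spry4 controls averaged 3.27 ± 0.23 (SD, n = 8) at ZT0, 2.68 ± 0.24 (n = 3) at ZT3, 2.37 ± 0.26 (n = 5) at ZT6, 2.56 ± 0.22 (n = 5) at ZT12 and 2.96 ± 0.24 (n = 5) at ZT18. Spred2 averaged 6.14 ± 0.16 at ZT0, 5.60 ± 0.10 at ZT3, 5.73 ± 0.23 at ZT6, 5.77 ± 0.10 at ZT12 and 6.08 ± 0.17 at ZT18, with the same numbers of animals. Spry2 ran from 5.06 ± 0.14 at ZT6 to 5.52 ± 0.13 at ZT0, and Spred1 from 6.35 ± 0.08 at ZT3 to 6.72 ± 0.09 at ZT18. Spry1 had its highest control mean at ZT12, 2.57 ± 0.09, and its lowest at ZT6, 2.39 ± 0.06. Errfi1 lay between 3.98 ± 0.11 at ZT3 and 4.12 ± 0.11 at ZT12.

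From ZT6 to ZT18, in the middle of the rest and of the active phase, 4 of the 6 were higher at ZT18, against 15.4% of all genes: Spry4 1.50-fold (log2 change 0.59, SE 0.14, adjusted p = 0.0013), Spry2 1.31-fold (0.39, SE 0.09, adjusted p = 0.00052), Spred1 1.29-fold (0.37, SE 0.07, adjusted p = 6.6e-05) and Spred2 1.28-fold (0.35, SE 0.10, adjusted p = 0.0039). Within batch 1 the changes were 0.84, 0.53, 0.28 and 0.26, and Spred2 no longer passed (adjusted p = 0.15). Between neighbouring times, Spred2 (-0.53, adjusted p = 0.0021), Spred1 (-0.32, adjusted p = 0.012) and Spry4 (-0.56, adjusted p = 0.028) were lower at ZT3 than at ZT0, 3 of the 6 against 2.70% of all genes. Spred1 was no longer called there without T3N2 or T3N3 (adjusted p = 0.072 and 0.065), and Spry4 without T0N1, T0N2, T3N2 or T3N4 (0.051 to 0.25) or within batch 1 (0.085). Without T3N2, 1 gene of the 6, Spred2, was lower and Spry1 was higher (0.24, adjusted p = 0.045). Without T0N5, Spry2 was also lower (-0.32, adjusted p = 0.047). From ZT12 to ZT18, 4 of the 6 rose, against 14.8%: Spry4 by 0.40, Spred1 by 0.35, Spred2 by 0.31 and Spry2 by 0.28 (adjusted p of 0.031, 0.00017, 0.012 and 0.013). Within batch 1 Spred2 did not pass (adjusted p = 0.060). Spry4 was lost without T12N1, T12N2, T12N5, T18N2 or T18N4 (0.062 to 0.13) and Spry2 without T12N1 (0.050), which left 2 calls. No gene of the 6 was called from ZT3 to ZT6 (0.181% of all genes), from ZT6 to ZT12 (3.87%) or from ZT18 to ZT0 (6.89%). Without T12N5, Spry1 was higher at ZT12 than at ZT6 (0.20, adjusted p = 0.043).

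Enforced wakefulness was also set against ZT18 controls, mice in the active phase. Of the 6, Spry4 was called higher at T30 than at ZT18 (1.49-fold, log2 change 0.57, SE 0.17, adjusted p = 0.027), beside 3.40% of all genes, and the other 5 were not. Its 3 T30 animals (3.48 to 3.54) lay above all 5 ZT18 controls (2.74 to 3.30). The same held for Spry2, Spred2 and Errfi1, which were not called, so the lack of overlap does not set Spry4 apart. The share of all genes without overlap was not computed for this comparison. The other changes were 0.30 for Spry2 (adjusted p = 0.067), 0.26 for Spred2 (0.17), 0.15 for Errfi1 (0.15), 0.10 for Spry1 (0.46) and 0.07 for Spred1 (0.70). The Spry4 call was lost within batch 1 (0.43, adjusted p = 0.21) and without T18N3, T18N7, T18N8, T30S1, T30S3 or T30S4 (adjusted p from 0.054 to 0.10).

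Ordered over all 17 groups, T27 or T30 had the highest mean of each gene. The lowest group was ZT6 for Spry2 and Spry4, ZT3 for Spred2, and T78 for Spry1, Spred1 and Errfi1. The span from highest to lowest group mean was 1.15 for Spry4, 0.77 for Spred2, 0.68 for Spry2, 0.52 for Spred1, 0.34 for Errfi1 and 0.30 for Spry1. Neighbours in the order mostly lay closer than the larger of their SDs: the steps that exceeded it were 2 of 16 for Spry4 (T30 to T48 and ZT18 to ZT3), 2 of 16 for Spred1 (T30 to T66 and T36 to ZT12), 1 for Spred2 (T30 to T72), 1 for Errfi1 (T60 to ZT12), 1 for Spry1 (T27 to T30) and 0 for Spry2.

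Over the 17 group means, Spry2, Spry4, Spred1 and Spred2 were correlated with each other, with Pearson r from 0.91 (Spry2 and Spred1) to 0.97 (Spry2 and Spry4). Errfi1 had r of 0.59 to 0.65 with these 4 genes, and Spry1 had 0.52 to 0.55. Each animal belongs to 1 of these groups, and the values are a description. Of all genes, those with means most like Spry4 were Midn (r = 0.98), Tnfrsf25 (0.98) and Dusp6 (0.98), an ERK phosphatase. Those most like Spry2 were Dusp4 (0.97), a nuclear ERK phosphatase, Cacnb1 (0.97), a calcium channel subunit, and Spry4. Spred2 was closest to Rnf165, Heca and Dusp4 (0.97). Errfi1 was closest to Cirh1a, Pkp2 and Ncbp1 (0.88 to 0.91), and Spry1 to Gjb6, Kcnn2 and Helz2 (0.81 to 0.83).

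The other genes of the pathway were counted from lists of ligands, receptors, core components, other feedback inhibitors and ERK targets. These lists, too, were chosen with earlier results of these data known. Of all genes, 8.21% were higher and 7.37% lower at T27, 16.0% and 15.6% at T30, and 7.46% and 4.46% at T36, and each list's counts are to be read against these shares. Of 16 growth factor ligands measured, 3 rose and 1 fell at T27, and 4 rose and 5 fell at T30. Bdnf, the TrkB ligand, rose 2.04-fold at T27 (log2 change 1.03, adjusted p = 1.1e-07), 2.21-fold at T30 (1.15, adjusted p = 1.3e-10) and 2.04-fold at T36 (1.02, adjusted p = 5.2e-09), and so was still higher at T36, where none of the 6 feedback genes was called. Pdgfb rose 1.56-fold at T27, and Fgf14, an intracellular FGF homologue, fell by 0.37 at T30. Of 16 receptors, 0 rose and 1 fell at T27, and 2 rose and 1 fell at T30, with Fgfr1 up 1.25-fold (adjusted p = 0.00092), Ntrk2, the gene of TrkB, up 1.11-fold (adjusted p = 0.0082) and Pdgfrb down by 0.26. Of 32 adaptors and Ras-ERK core genes, 1 rose and 2 fell at T27 and 6 rose and 6 fell at T30, close to the shares of all genes at T30 in both directions. Among them Mapk3, the gene of ERK1, fell by 0.28 at T30 (adjusted p = 0.0015), while Rps6ka2, an ERK-activated kinase, rose 1.31-fold (adjusted p = 4.4e-05). At T36, 4 of the 16 ligands rose and 1 fell. Of the 16 receptors 3 rose, Ntrk3, Fgfr1 and Ntrk2, and 0 fell, and of the 32 core genes 1 rose and 2 fell.

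Of 12 other feedback inhibitors measured, 5 rose at both T27 and T30 and 1 fell at each time. These 5 were Dusp4, Dusp5, Dusp6, Spred3 and Spry3. The phosphatases Dusp4 (2.95-fold at T30, adjusted p = 2.1e-08), Dusp5 (2.74-fold, adjusted p = 5.9e-06) and Dusp6 (2.39-fold, adjusted p = 3.8e-05) had larger folds at T30 than any of the 6 genes, a difference that was not tested. At T30 Spred3, the remaining Spred gene, had a 1.68-fold rise (0.75 in log2, SE 0.09, adjusted p = 1.6e-08). That of Spry3, the remaining Sprouty gene, was 1.21-fold (0.28, SE 0.09, adjusted p = 0.0096), and at T27 their folds were 1.43 and 1.25. Both are on the list of other feedback inhibitors, whose median log2 change over its 12 genes was 0.04 at T30, against -0.003 over all genes. Of 18 ERK target genes, 10 rose and 0 fell at T27 and 14 rose and 0 fell at T30 (median 0.45), led at T30 by the immediate early genes Egr2 (7.22-fold, adjusted p = 1.7e-05), Fos (6.37-fold, adjusted p = 0.00011), Junb (3.60-fold, adjusted p = 0.00043) and Egr1 (2.68-fold, adjusted p = 0.00015). At T36, 3 ERK targets rose and 2 fell, and 0 feedback inhibitors rose and 1 fell. In undisturbed mice at ZT18 against ZT6, 11 of the 18 ERK targets were higher and 0 lower (median 0.40). Egr2 was 2.99-fold higher there, Fos 2.19-fold and Egr1 2.03-fold. Of the 12 feedback inhibitors 3 were higher and 0 lower: Dusp4 (1.85-fold), Spred3 (1.46-fold) and Spry3 (1.33-fold). Of all genes, 15.4% were higher and 14.3% lower in that comparison.

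**Figure D3:**
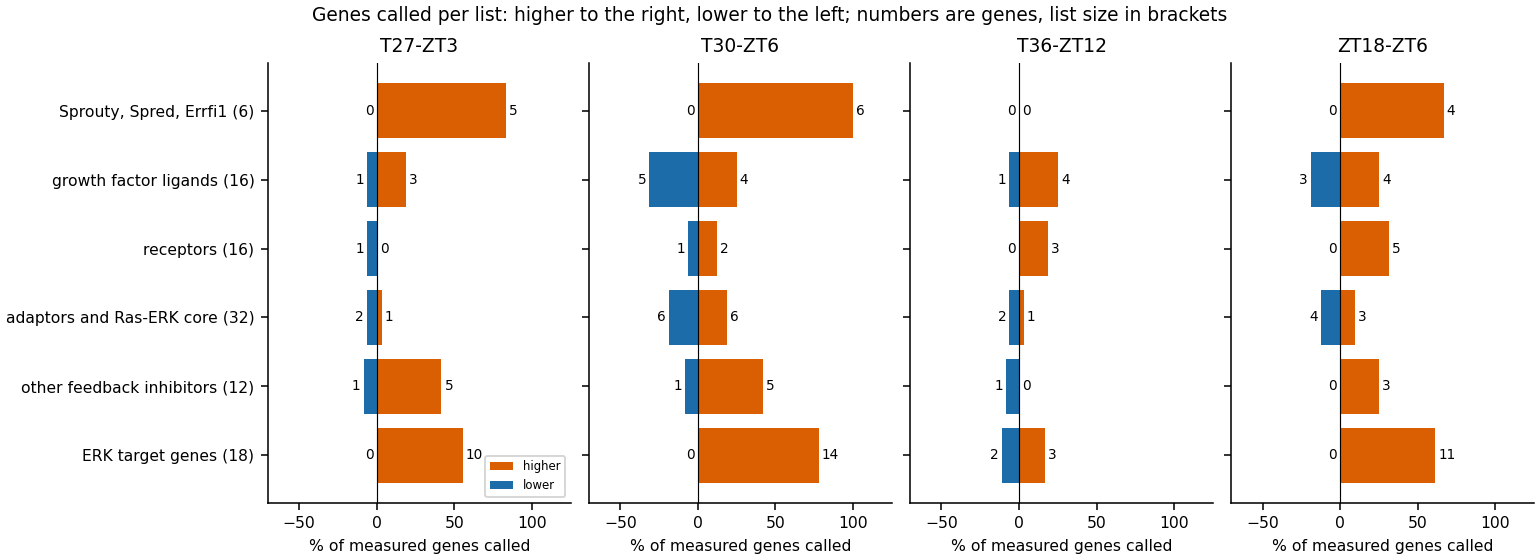
Share of the measured genes of each list called higher (orange, right of 0) or lower (blue, left of 0), in percent on the x axis, for 3 deprived comparisons and for ZT18 against ZT6 controls. At T30 all 6 Sprouty, Spred and Errfi1 genes and 14 of 18 ERK targets were higher, and at T36 the counts were 0 and 3.

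Markers of cell types were counted beside these results. All 62 libraries carried cortical markers, with Slc17a7, the vesicular glutamate transporter of excitatory neurons, at 9.42 to 9.72 and Gad1, of inhibitory neurons, at 7.70 to 8.08. No listed marker in the table was at 0 in every library. The 7 astrocyte markers had 0 calls at T27 and T30, and the 6 inhibitory neuron markers 0 and 1. At T30, 3 of 7 oligodendrocyte markers fell, Opalin by 0.95, Mog by 0.38 and Cnp by 0.22, with summed levels of 1605 to 2150 at T30 and 1825 to 2355 at ZT6. Of the oligodendrocyte markers 0 were called at T27. Of 6 oligodendrocyte precursor markers 1 rose at T27, Gpr17 by 0.44 (summed levels 108 to 119 at T27 and 106 to 116 at ZT3), and 2 rose at T30, Gpr17 and Olig2 (105 to 114 at T30 and 95.8 to 107 at ZT6). Of 7 microglia markers 1 fell at T27, P2ry12 by 0.21 (191 to 207 and 194 to 217), and 1 rose and 3 fell at T30 (184 to 191 and 193 to 203). At T27, 3 of 3 measured choroid plexus markers and 2 of 6 meningeal markers were lower. Ttr, the choroid plexus transcript, stood at 1.51 to 2.29 at T27 and at 2.95, 4.66 and 7.54 in ZT3 controls. The summed choroid plexus levels were 137 to 151 at T27 and 164 to 378 at ZT3, and the meningeal ones 72.3 to 90.5 and 90.1 to 136. At T30, 1 of 3 choroid plexus markers was lower (147 to 148 at T30 and 157 to 176 at ZT6) and 0 of 6 meningeal ones were. Of 7 excitatory neuron markers 1 rose and 2 fell at T27, and 1 rose and 1 fell at T30. Of 7 endothelial markers 1 fell at T27, and 1 rose and 1 fell at T30, and of 7 mural cell markers 1, Pdgfrb, fell at each time. At ZT18 against ZT6, where 4 of the 6 genes were higher (15.4% of all genes higher and 14.3% lower), 3 of 7 oligodendrocyte markers were lower, with log2 changes of -0.81 for Opalin, -0.43 for Mog and -0.29 for Cnp (summed levels 1758 to 2161 at ZT18 and 1825 to 2355 at ZT6). In the same comparison 3 of 6 precursor markers were higher, Gpr17 by 0.59 (107 to 121 and 95.8 to 107), and 3 of 7 excitatory neuron markers were higher, Neurod6 by 0.28 (2688 to 3015 and 2592 to 2771). Endothelial markers had 2 higher and 1 lower there, microglia markers 1 higher, and the astrocyte, mural, meningeal, choroid plexus and inhibitory neuron lists 0 calls. With any 1 library left out, the count of the 6 genes higher at T27 was still 5. Every ZT3 control had more Ttr than every T27 animal, so leaving out 1 library keeps that difference and cannot show its part. The part of these markers in the results for the 6 genes was not tested.

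Open chromatin was read from the same animals, 59 ATAC libraries and 130727 peaks, with 2205737 to 11912274 reads in peaks per library, a median of 4018346 in batch 1 and 6604094 in batch 2. Within 20 kb of the 6 genes lie 49 peaks: 4 at Spry1, 7 at Spry2, 3 at Spry4, 10 at Spred1, 22 at Spred2 and 3 at Errfi1. None of the 49 was called at T27, against 0.689% of all peaks, nor at T30, against 2.60%. Unadjusted p was under 0.05 for 1 and 5 of them. The median log2 change over the 49 was 0.00 at T27 and 0.05 at T30.

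The peak over the Spred2 start site (chr11:19923906-19924611) had signals of 25.2, 29.5 and 30.3 at T30 and 22.5 to 31.0 with a median of 26.5 at ZT6 (log2 change 0.05, SE 0.15, adjusted p = 0.92). The peak over the Spred1 start site (chr2:117119247-117121220) had 33.7, 34.1 and 35.4 at T30 and 30.5 to 46.4 with a median of 33.4 at ZT6 (-0.04, SE 0.14, adjusted p = 0.94). In both, the T30 libraries lay within the range of the controls. The peak over the Spry1 start site (chr3:37639607-37640678) had a change of 0.29 (SE 0.14, adjusted p = 0.31), and the one over the second Errfi1 start site (chr4:150854371-150855603) had -0.11 (SE 0.17, adjusted p = 0.81). At Spry2 the peak nearest the start site by its centre (chr14:105896026-105896418) had -0.12 (SE 0.21, adjusted p = 0.84). A stronger one just upstream (chr14:105897043-105898465), named after its values were seen, had 0.30 (SE 0.14, adjusted p = 0.31), with 33.3, 38.8 and 42.9 at T30 and 26.7 to 39.4 at ZT6. The peak over the upper end of the Spry4 span had 0.01 (SE 0.14, adjusted p = 0.98), with 24.6, 24.7 and 26.0 at T30 and 22.8 to 29.9 at ZT6.

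At T36, 1 of the 49 peaks was called, against 0.618% of all peaks: a peak inside the Spred2 span (chr11:19959041-19959363), lower by 1.34 in log2 (SE 0.33, adjusted p = 0.031). It rests on few reads, 0 to 9 per T36 library and 8 to 14 per ZT12 library, with signals of 0.00, 1.43 and 2.51 against 1.68 to 4.04 with a median of 3.49. The groups overlap. The call was lost by edgeR on the recovered reads (-1.19, adjusted p = 0.27), with 5 added to the signal (-0.39, adjusted p = 0.13), and without T12N1, T12N2, T12N4, T12N6, T36S2 or T36S4 (adjusted p from 0.054 to 0.080, and 0.50 without T36S4). T36S4 is the library with 0 reads, and without it the log2 change was -0.59 instead of -1.34. No peak of the 49 passed the F-test over control times, against 1.39% of all peaks.

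Farther out, to 100 kb, 2 of 120 peaks were called at T30, a smaller share than the 2.60% of all peaks, so the count is no result about these genes. Both peaks were higher. A peak 98998 bases upstream of Spred1 (chr2:117021875-117022270) had signals of 6.97, 7.53 and 7.54 at T30 and 3.12 to 4.49 at ZT6, with no overlap (log2 change 0.86, SE 0.23, adjusted p = 0.025). A peak 58421 bases upstream of Spry2 (chr14:105955014-105955466) had 3.75, 4.37 and 4.64 at T30 and 0.922 to 3.33 at ZT6 (0.98, SE 0.30, adjusted p = 0.04999), just past the threshold. At T27 the same peaks had log2 changes of 0.65 (adjusted p = 0.27) and 0.54 (adjusted p = 0.56). No file ties these peaks to either gene.

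**Figure D4:**
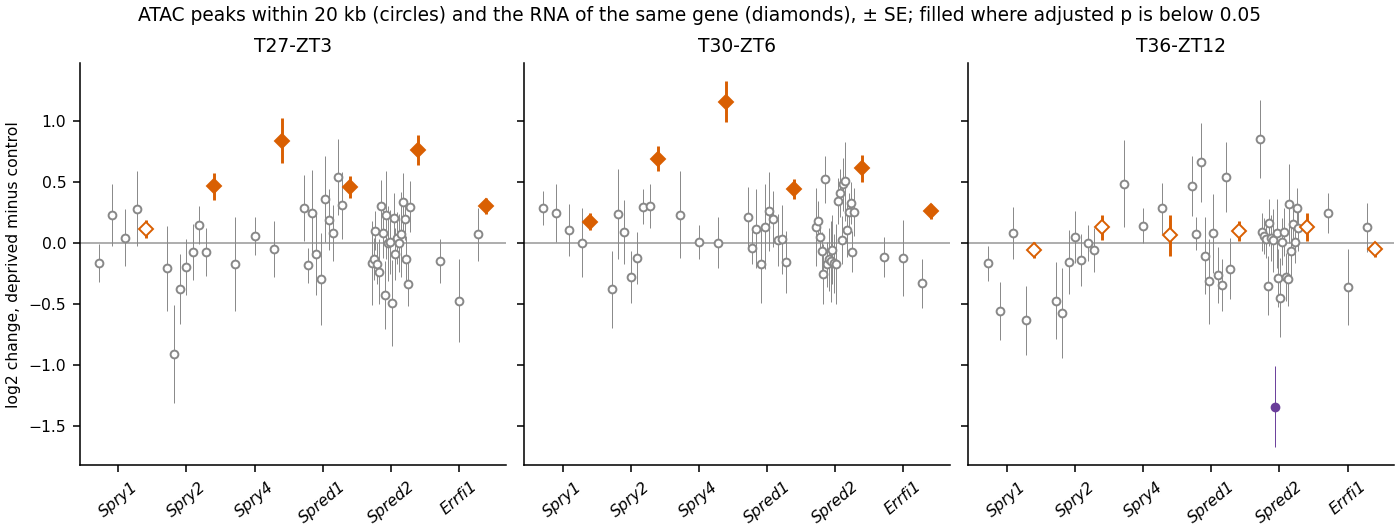
Log2 change (y axis, with SE) of the 49 ATAC peaks within 20 kb of each gene (circles) and of the RNA of that gene (diamonds) at T27, T30 and T36 against matched controls; filled symbols have an adjusted p below 0.05. At T30 all 6 diamonds are filled and no circle is, and at T36 the 1 filled circle is the Spred2 peak at -1.34.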

How the data were processed

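RNA levels were used as the log2 values deposited by the authors. Their normalisation is not given in the labels. From the values, they hold an offset of 0.5 and unlogged levels sum to 944370 to 1022975 per library. They appear batch-adjusted: 30 values are exactly -1 in batch 1 and 0 in batch 2, where 23 lie below -1. The first column merges 2 libraries of 1 ZT0 animal and was counted as batch 1. The submitters' processing notes name the builds mm10 and GRCm38 and the tools HTSeq 0.6.1, MACS2 2.1.1, kallisto 0.43.0, bedtools 2.26.0, sleuth 0.29.0, SAMtools, Bowtie2 and FastQC, without their settings. ATAC values are signal per peak, deposited by the authors, with duplicate and mitochondrial reads removed per the labels' protocols. Whole read counts were recovered from the signal (100% of values within 0.02 reads), and 1 repeat library was left out.

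Each assay was fitted with limma 3.58.1 in R 4.3.3: a mean per group and a batch term, with an intensity trend, two-sided tests and 44 (RNA) and 41 (ATAC) residual degrees of freedom. Before fitting, 0.5 was added to each ATAC value and log2 taken. P-values were adjusted by the Benjamini-Hochberg method over all genes or peaks in each comparison, with calls below 0.05. Alternatives were no batch term, 1 batch, aligned medians, filters below the 25th percentile, other offsets, no trend, edgeR 4.0.16 on ATAC reads, a wider window of 100 kb, a replicate block and leaving out each library. On simulated RNA data over 13842 genes, the T30 comparison recovered 59.7% of genes changed by 0.3 in log2, 88.1% of those changed by 0.6 and 97.0% of those changed by 1.0. These were 67, 67 and 66 genes, while 2217 were called higher and 2155 lower at T30 in the data. With fewer changed genes the adjustment is stricter, so these shares do not give the recovery in the data.

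The 6 genes and the pathway and marker lists were chosen with earlier results of these data known. All 6 genes are named, with at most 4 called genes per pathway list and comparison by size of change, the 3 genes most like each in group means (not reported here for Spred1), and for ATAC the peak nearest each start site and every called peak. A peak belonged to a gene if its centre lay in the annotated span or within 20 kb of it. Promoter windows come from RefSeq, and 5 of the 6 genes have 1 or 2, with none used for Spry4. T66 has 1 ATAC library, assumed to vary like the others. Mice are separate animals, so p-values measure spread between animals.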

Additional observations from a re-analysis of the deposited data

Results flagged for a closer look

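The effect of deprivation was lower at T36 than at T30 for 5 of the 6 genes by a test of the difference itself. This held for 5.75% of all genes. The log2 differences were -1.096 for Spry4, -0.563 for Spry2, -0.485 for Spred2, -0.348 for Spred1 and -0.314 for Errfi1. Within batch 1 the calls for Spred1, Spred2 and Errfi1 were lost (limma adjusted p = 0.31, 0.30 and 0.074). At T30 all 3 deprived animals lay above all 5 controls for each of these 5 genes, which held for 16.1% of all genes. At T36 the deprived and control animals overlapped for each of them, and the share of all genes was not computed there. By a Dixon ratio for 1 outlying animal, none of the 24 sets of 5 or 8 control animals was flagged for any of the 6 genes. ZT0 animal T0N5 still lay below the other ZT0 animals for Spry1, Spry2 and Spry4. For Spry2 it stood at 5.26 against 5.48 to 5.68, and for Spry4 at 2.79 against 3.15 to 3.57. For Spred1, Spred2 and Errfi1 it lay within the range of the others.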

How the results depend on the processing

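Of 2194 log2 changes of the 6 genes recomputed under alternatives, 2135 kept their side of the threshold, 56 calls were lost, 3 were gained and 0 called values reversed, and 109 uncalled values changed sign. Genes called higher numbered 5 at T27 and 5 to 6 at T30 when each library was left out. The filter on low levels removes Spry1 and Spry4 from the test, which gave 4 higher at T27, 4 at T30, 0 at T30 against ZT18 and 3 with time of day. The 1 gene called at T30 against ZT18 became 0 within 1 batch and 0 to 1 with a library left out. The 5 genes lower from T30 to T36 became 2 within 1 batch and 2 to 5 with a library left out. With a library left out, 1 to 4 genes were lower and 0 to 1 higher at ZT3 against ZT0, 0 to 1 higher at ZT12 against ZT6, 2 to 4 higher at ZT18 against ZT12, and 4 to 6 passed the time of day test. For peaks at the genes, the T30 count of 0 became 2 within 100 kb and 0 to 1 with a library left out (1 without T30S3, inside Spred2). The T36 count of 1 became 0 with 5 added, with the filter on low signal, which removes that peak, and by edgeR, and 0 to 1 with a library left out. The time of day count of 0 became 1 within 100 kb and 0 to 1 with a library left out (1 without T18N2 or T0N8). Apart from the removal of genes or peaks by the filters, the cause of these changes was not tested.

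Animal numbers were not taken to pair the animals. Residuals of same-numbered animals had a median r of -0.00137 over 330 RNA pairs, with 62 above 0.1, and -0.00245 over 315 ATAC pairs. Animals with different numbers were not compared in this way, so a pairing is not excluded. With the replicate block, genes called at T30 were 2118 higher and 2096 lower, against 2217 and 2155 without it, the genes lower from T30 to T36 became 3 of the 6, and that at T30 against ZT18 became 0. With the block, Spry1 was no longer called at T30 (adjusted p = 0.056) or with time of day (0.096), nor Spred2 at ZT18 against ZT6 (0.052) or ZT12 (0.074).

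Over all genes, the comparisons below, which are not a full list, had fewer calls within 1 batch. A single batch holds fewer samples, and the cause was not tested. At T27, 999 were higher and 902 lower against 1136 and 1020. At T30, 1737 were higher and 1667 lower against 2217 and 2155. At T42 there were 22 and 18 against 85 and 60. From ZT6 to ZT12, 43 were higher and 32 lower against 248 and 288. From ZT18 to ZT0, 74 were higher and 88 lower against 450 and 504. At T36, 369 were lower against 617. For the T30 to T36 difference, 364 were higher and 358 lower against 777 and 796. At ZT18, 1341 were higher than at ZT6 against 2132, and 1341 higher than at ZT12 against 2042. At T30, 252 were higher than at ZT18 against 471. At ZT3, 246 were lower than at ZT0 against 374, and 3244 passed with time of day against 5630. By edgeR, peaks called were 1350 higher and 96 lower at T27 against 860 and 41, 232 lower at T30 against 558, and 171 higher and 188 lower at T36 against 341 and 467. With 3 animals per deprived group, changes near 0.3 in log2 can be missed, and peaks near 10 reads per library limit the ATAC calls.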
